A study of Mus musculus with 8 samples.

Results

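The 3 growth arrest and DNA-damage-inducible (GADD45) genes and 7 transcripts that the tumor suppressor p53 is known to induce were followed in the hearts of tumor-bearing mice. The genes were Gadd45a, Gadd45b, Gadd45g, Cdkn1a, Mdm2, Ccng1, Trp53inp1, Bax, Bbc3 and Phlda3, taken by symbol, and they make up 10 of the 43346 genes in the count table. Each symbol matched 1 gene. Total RNA was purified from the cardiac ventricles of 8 male C57BL/6 mice for mRNA sequencing. At an age of 7 weeks, 4 of them had received 1000000 LLC1 cells under the skin of the left flank, and 4 had received the vehicle, phosphate-buffered saline (PBS), with no cells. LLC1 is a mouse Lewis lung carcinoma line, so the tumor lay outside the heart. All ventricles were taken on day 14. The samples are whole tissue from 1 sex, and mice are named by injection and by the replicate code in their labels.

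The p53 protein is a transcription factor that is stabilized after DNA damage and other stress. Its targets stop the cell cycle, among them Cdkn1a, start apoptosis, among them Bax and Bbc3, or restrain p53 itself, among them Mdm2. GADD45 proteins are small acidic proteins without known enzymatic activity that bind the kinase MAP3K4, the replication clamp PCNA and the mitotic kinase CDK1. Gadd45a is a classic p53 target, whereas Gadd45b and Gadd45g are known mainly as early response genes of cytokine and stress signals. In bulk tissue, fewer cells of a type and less RNA per cell cannot be told apart.

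Library totals ran from 15342214 to 19747596 counts in the LLC1 mice and from 12480706 to 16192158 counts in the PBS mice, so that 1 count per 1000000 (CPM) stood for 11.7 to 19.9 counts. All 10 genes passed the filter on low counts, with Bbc3 (39 to 84 counts) and Gadd45b (48 to 168 counts) the lowest, and 0 of the 10 passed through 1 group alone. On the first principal component of log2 CPM (31.5% of the variance) the LLC1 mice lay at 16.0 to 21.3 and the PBS mice at -28.4 to -12.3. On the second (25.2%) PBS 1-1 lay at 35.3 and the other PBS mice at -23.3 to -10.8, and values of the 10 genes and of their ratios that changed sign or moved by over 1.5 times without PBS 1-1 are also given without it. The summed level of 6 cardiomyocyte markers was 87360 to 93850 CPM in LLC1 mice and 78430 to 80630 CPM in PBS mice, with Myh6 the 1 marker called (higher). Of the other lists, 2 of 6 endothelial, 2 of 5 fibroblast and 1 of 4 macrophage markers were lower, 2 of 3 tested neutrophil markers (S100a8 and S100a9) were higher, and 0 of 4 smooth muscle and 0 of 5 erythroid markers were called by edgeR's quasi-likelihood test, with 1 and 0 at an unadjusted p under 0.05. S100a8 and S100a9 reached the level of the filter (0.627 CPM before TMM scaling) in LLC1 mice only, so that a higher value there was close to a condition of their being tested. The markers of lymphocytes (summed level of at most 2.35 CPM) and of adipocytes (at most 1.97 CPM) were too low to be tested.

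Promoters are shown for the GADD45 genes, because Gadd45b was called and the other members were not, and for Cdkn1a, because it held a p53 motif that few promoters hold. Each sequence is the 250 bases before a RefSeq start site of GRCm38.p6, 5′ to 3′ on the strand of the gene. Gadd45a is on the minus strand (chr6:67037408-67037657), and Gadd45b (chr10:80929841-80930090), Gadd45g (chr13:51846425-51846674) and Cdkn1a (chr17:29090729-29090978) are on the plus strand. In the GADD45 genes, capitals mark the CCAAT box, the TATA box, spelled TATAAA, and an E-box, spelled CACGTG. In Cdkn1a they mark a pair of p53 half-sites, with the bases between them.
Gadd45a: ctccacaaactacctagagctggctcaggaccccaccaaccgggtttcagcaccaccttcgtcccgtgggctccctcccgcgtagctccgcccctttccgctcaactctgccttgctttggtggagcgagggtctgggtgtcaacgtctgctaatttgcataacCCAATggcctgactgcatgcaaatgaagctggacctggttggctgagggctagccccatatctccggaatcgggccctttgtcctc
Gadd45b: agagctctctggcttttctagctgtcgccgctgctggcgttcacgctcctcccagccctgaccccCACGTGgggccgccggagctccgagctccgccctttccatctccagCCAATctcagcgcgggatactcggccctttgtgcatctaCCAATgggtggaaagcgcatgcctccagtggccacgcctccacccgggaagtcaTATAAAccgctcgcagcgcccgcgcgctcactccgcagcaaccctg
Gadd45g: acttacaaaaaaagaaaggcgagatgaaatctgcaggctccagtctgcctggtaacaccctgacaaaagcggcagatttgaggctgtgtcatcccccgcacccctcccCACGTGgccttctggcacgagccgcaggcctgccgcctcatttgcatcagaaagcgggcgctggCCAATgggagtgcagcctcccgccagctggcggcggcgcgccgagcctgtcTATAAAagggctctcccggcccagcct
Cdkn1a: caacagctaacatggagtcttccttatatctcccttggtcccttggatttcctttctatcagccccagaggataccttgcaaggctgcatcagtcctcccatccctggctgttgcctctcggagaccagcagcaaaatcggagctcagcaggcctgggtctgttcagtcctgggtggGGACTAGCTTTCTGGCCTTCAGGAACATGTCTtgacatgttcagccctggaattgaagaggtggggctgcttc

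Windows of 300 bases, from 250 bases before to 50 bases after a start site, were scanned on both strands, and positions are counted from the start site at 0. Such windows were held for 9 of the 10 genes, 12 windows in all, and Trp53inp1 had none. Bbc3 had more than 1, of which chr7:16310011-16310310 and chr7:16310181-16310480 overlap, so that motifs in the shared bases were counted in both. The TATA box lay at -46 to -41 in Gadd45b and at -27 to -22 in Gadd45g, and was in 2 of the 12 windows against 13.6% of all 32851 windows. The E-box lay at -185 to -180 in Gadd45b and at -142 to -137 in Gadd45g. It was also found for Bax and Bbc3, that is, in 4 of the 12 windows, against 7.15% of all windows. The CCAAT box was in 6 of the 12 windows, against 37.4% of all, and the GC box, spelled GGGCGG, in 9 of the 12 (7 genes), against 35.7% of all. Gadd45b and Gadd45g thus shared the TATA box, the E-box and the CCAAT box, and Gadd45a held just the last of these. A p53 half-site was in 5 windows, those of Gadd45a, Bax, Mdm2, Ccng1 and Cdkn1a, against 8.36% of all windows. Half-sites in a pair, at most 13 bases apart, were found in 24 of the 32851 windows (0.0731%), and the upstream start of Cdkn1a was the 1 window of the 12 that held them, at -73 to -42. The AP-1 motif, spelled TGANTCA, the cAMP response element, spelled TGACGTCA, and an NF-kappaB motif were in 0 of the 12 windows, against 7.81%, 1.79% and 0.411% of all windows.

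Among the 10 transcripts, Gadd45b was higher in tumor-bearing mice and Phlda3 was lower, and 8 transcripts did not pass the test. A call was an FDR under 0.05, that is, a p-value from edgeR (quasi-likelihood test) after adjustment over the 16111 genes tested. The 1 gene called higher and the 1 called lower stand beside a background of 4.12% of all tested genes called higher and 4.61% called lower, or 8.73% in either direction. That background was 663 genes higher and 743 lower, and it became 225 higher and 793 lower when libraries were scaled to total counts, where Gadd45b and Phlda3 were still the 2 calls among the 10. The median log2 fold change, LLC1 over PBS, was 0.07 over the 10 genes and -0.01 over all genes tested, with 6 of the 10 above 0. Values of LLC1 and PBS mice were fully separated for 2 of the 10, against 17.2% of all genes tested, and for 1 of the 10 (Gadd45b) with the LLC1 mice higher, against 8.89%.

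**Figure D1:**
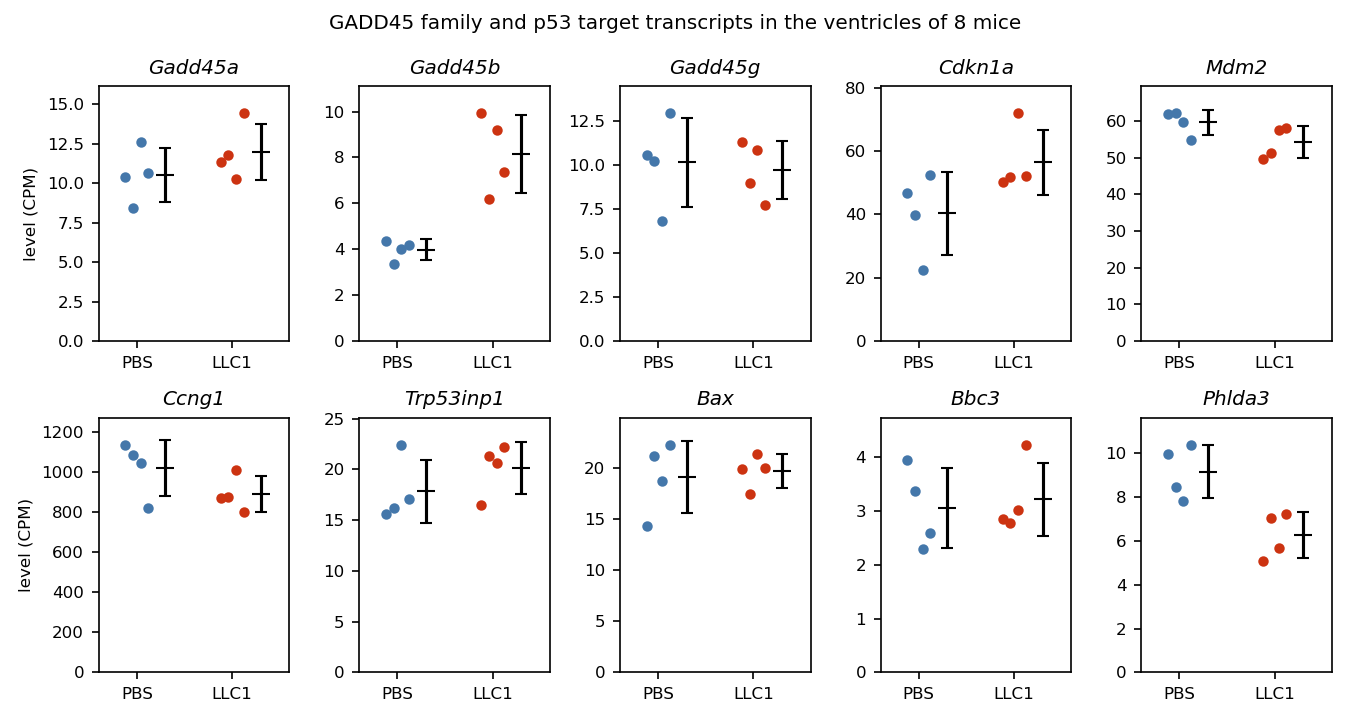
Level of each of the 10 transcripts in CPM (linear axis from 0, own scale in each panel). Points are single mice (blue PBS, red LLC1, 4 each), and the bar beside them is the mean with SD. The 4 LLC1 points for Gadd45b (6.19 to 9.92 CPM) lie above the 4 PBS points (3.37 to 4.38 CPM), those for Phlda3 lie below, and the groups overlap in the other panels.

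**Figure D2:**
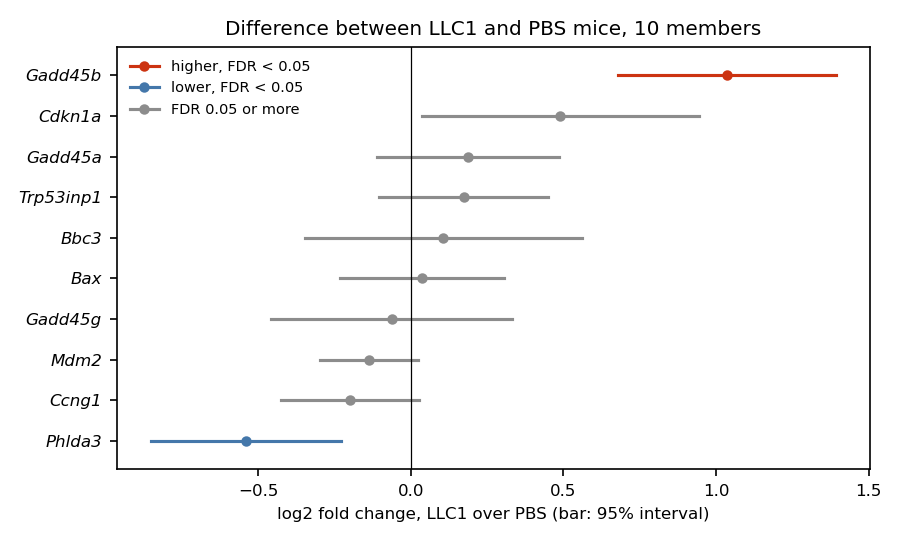
Log2 fold change of LLC1 over PBS for the 10 transcripts, from edgeR, with the 95% confidence interval as a bar. Red marks the call that was higher (Gadd45b, 1.03), blue the call that was lower (Phlda3, -0.54) and grey an FDR of 0.05 or more. The interval for Cdkn1a starts just above 0.

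Gadd45b (ENSMUSG00000015312, mm10 chromosome 10, 80930091 to 80932204, plus strand) encodes a GADD45 protein known for restraining stress kinase signals and for its induction by inflammatory cytokines. In LLC1 mice 1-2, 1-3, 1-5 and 2-2 its level was 9.92, 6.19, 9.19 and 7.35 CPM. In PBS mice 1-1, 1-3, 2-1 and 2-5 it was 4.38, 3.37, 4.002 and 4.19 CPM. The lowest LLC1 mouse lay above the highest PBS mouse, and the LLC1 mice were the more spread (SD of 1.71 against 0.440 CPM, n = 4 each). The fold change was 2.05 with a 95% interval of 1.6 to 2.62 (edgeR FDR = 0.00432), and the 2-sided exact permutation p was 0.0286, the smallest that 4 mice against 4 allow. The call was kept without each mouse in turn, with log2 fold changes from 0.93 to 1.14, and was 1.08 without PBS 1-1 (edgeR FDR = 0.00247). The summed level of the 5 neutrophil markers also stood apart, at 3.27 to 6.06 CPM in LLC1 mice and 1.24 to 2.92 CPM in PBS mice. S100a8 and S100a9 were called higher, whereas Csf3r overlapped between the groups (edgeR FDR = 0.39). Ly6g was at 0 counts in the PBS mice and at most 1 in an LLC1 mouse. Within the LLC1 group, mouse 1-3 had the highest sum and the lowest Gadd45b level. The part of these cells in the Gadd45b level was not tested. The study itself placed Gadd45b among its selected transcripts from these mice, so its call is no independent evidence.

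Gadd45a (ENSMUSG00000036390, mm10 chromosome 6, 67035096 to 67037457, minus strand) was at 11.4, 11.8, 10.3 and 14.4 CPM in LLC1 mice 1-2, 1-3, 1-5 and 2-2, and at 10.4, 8.41, 12.6 and 10.6 CPM in PBS mice 1-1, 1-3, 2-1 and 2-5. The groups overlapped, as PBS 2-1 was above 3 of the LLC1 mice. The log2 fold change was 0.19 with a 95% interval of -0.11 to 0.49 (edgeR FDR = 0.426), and the interval leaves room for a fold change of up to 1.40. Leaving out single mice moved the value between 0.08, without LLC1 2-2, and 0.29, without PBS 2-1, and it was 0.09 without PBS 1-3. Of the exon bases of Gadd45a, 19.1% are also exons of the noncoding E230016M11Rik on the other strand in GENCODE M21, and the libraries did not mark strand, so reads there cannot be assigned to 1 of the 2 genes. The level of E230016M11Rik was 4.92 ± 1.11 CPM in LLC1 mice and 4.22 ± 0.850 CPM in PBS mice (SD, n = 4; edgeR FDR = 0.498).

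Gadd45g (ENSMUSG00000021453, mm10 chromosome 13, 51846678 to 51848468, plus strand), the third member of the family, was at 11.3, 8.96, 10.8 and 7.75 CPM in the LLC1 mice and at 10.6, 10.2, 6.83 and 12.9 CPM in the PBS mice, in the same order. The highest and the lowest of the 8 values were both from PBS mice. The log2 fold change was -0.06 with a 95% interval of -0.46 to 0.33 (edgeR FDR = 0.863). Its sign turned without LLC1 2-2 (0.03) and without PBS 2-5 (0.08), and it was -0.22 without PBS 2-1.

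Since the 3 genes were measured in the same libraries, their shares of the family level can be compared within each mouse, where library scaling has no effect. The share was taken of the summed CPM per kilobase (RPKM) of the 3 genes, a scale that corrects for transcript length. Gadd45b held 32.8%, 25.5%, 32.5% and 28.2% of the family level in LLC1 mice 1-2, 1-3, 1-5 and 2-2. It held 18.9%, 16.5%, 19.6% and 16.3% in PBS mice 1-1, 1-3, 2-1 and 2-5, so the groups did not overlap. The mean share was 29.7% ± 3.54 against 17.8% ± 1.69 (SD, n = 4), a difference of 11.9 percentage points (2-sided exact permutation p = 0.0286, adjusted over the 3 shares 0.0857). With exon lengths of GENCODE M21 the difference was 10.5 percentage points. The mean share of Gadd45g was 38.4% ± 4.25 against 48.3% ± 8.49 (exact permutation p = 0.114, adjusted 0.171), and that of Gadd45a was 31.9% ± 6.53 against 33.9% ± 7.05 (exact permutation p = 0.714, adjusted 0.714). The difference in the Gadd45a share ran from -4.59 percentage points, without LLC1 2-2, to 1.499, without PBS 2-1. Gadd45g thus held the largest mean share in both groups. The summed family level was 21.5 ± 2.06 RPKM in LLC1 mice and 17.7 ± 2.03 RPKM in PBS mice (SD, n = 4), with ranges that overlapped (19.2 to 23.9 and 16.1 to 20.4 RPKM).

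**Figure D3:**
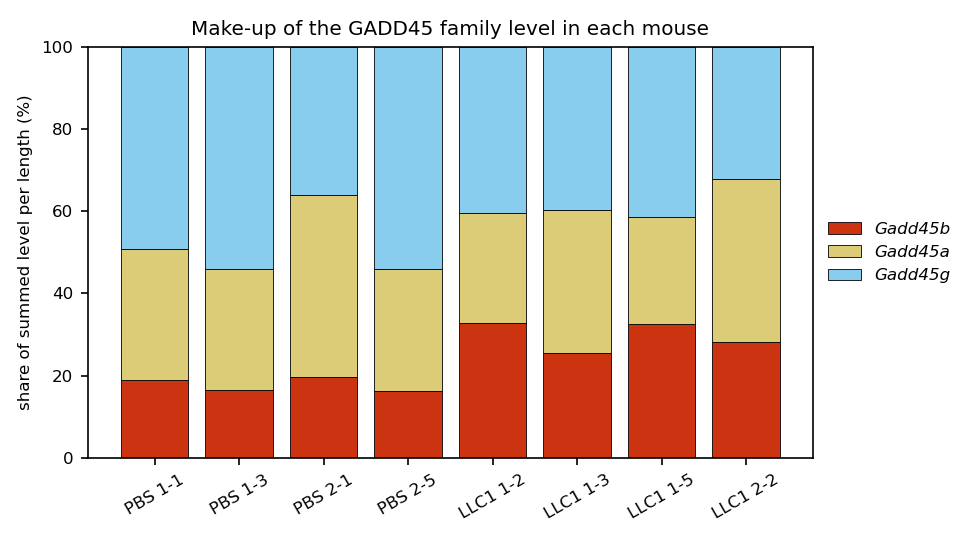
Share of Gadd45a, Gadd45b and Gadd45g in the summed GADD45 level per length (RPKM) of each mouse, as stacked bars that add up to 100%. The Gadd45b part (red) is 16.3% to 19.6% in the 4 PBS mice and 25.5% to 32.8% in the 4 LLC1 mice. The boundary between Gadd45a and Gadd45g lies higher in PBS 2-1 and LLC1 2-2 than in the other mice of their groups.

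The log2 ratio of Gadd45b to Gadd45a tests directly whether these members moved apart. It ranged from -0.96 to -0.16 in LLC1 mice and from -1.62 to -1.22 in PBS mice, a difference of 0.81 (2-sided exact permutation p = 0.0286, adjusted over 7 ratios 0.100). The ratio of Gadd45b to Gadd45g differed by 1.04 on the log2 scale (exact permutation p = 0.0286, adjusted 0.100) and did not overlap between groups either. For Gadd45g to Gadd45a the difference was -0.23 (exact permutation p = 0.486, adjusted 0.567), and it ran from -0.50, without PBS 2-1, to -0.04, without LLC1 2-2, and was -0.11 without PBS 1-3 or PBS 2-5. Both ratios with Gadd45b were thus separated between the groups. With 4 mice against 4, the smallest exact permutation p is 0.0286, which both ratios and the Gadd45b share had. Their adjusted p depends also on the other ratios or shares tested, so that missing 0.05 says nothing about their stability.

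Cdkn1a (ENSMUSG00000023067, mm10 chromosome 17, 29090979 to 29100722, plus strand) encodes p21, the cyclin-dependent kinase inhibitor through which p53 arrests the cell cycle. Its level was 50.3, 51.8, 71.9 and 52.0 CPM in LLC1 mice 1-2, 1-3, 1-5 and 2-2, and 46.7, 39.8, 22.4 and 52.5 CPM in PBS mice 1-1, 1-3, 2-1 and 2-5. All LLC1 mice other than 1-5 lay within 2 CPM of each other, LLC1 1-5 was far above them, and PBS 2-5 fell between them and LLC1 1-5. The mean was 56.5 ± 10.3 CPM in LLC1 mice and 40.4 ± 13.1 CPM in PBS mice (SD, n = 4). The fold change was 1.41 with a 95% interval of 1.03 to 1.92 (unadjusted p = 0.0368, FDR = 0.165 in edgeR). The exact permutation p was 0.114, and Cdkn1a was called in 0 of 10 alternative settings and 0 of 8 fits that left out a mouse. Those fits moved its log2 fold change between 0.28, without PBS 2-1, and 0.65, without PBS 2-5. A transcript model of the other strand covers 7.7% of its exon bases and was not used here.

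Ratios of Cdkn1a to other p53 targets of the same mice had higher means in the LLC1 mice and did not pass the test. The log2 ratio of Cdkn1a to Mdm2 was 0.05 ± 0.20 in LLC1 mice and -0.63 ± 0.57 in PBS mice (SD, n = 4; 2-sided exact permutation p = 0.0571, adjusted over 7 ratios 0.133). That of Cdkn1a to Ccng1 was higher by 0.73 (exact permutation p = 0.0857, adjusted 0.150). Without PBS 2-1 the differences were 0.42 for Mdm2 and 0.46 for Ccng1, where all mice gave 0.68 and 0.73. In both ratios the PBS mice were more spread than the LLC1 mice, and the groups overlapped.

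Phlda3 was lower in tumor-bearing mice, and Mdm2 and Ccng1 were not called. Phlda3 (ENSMUSG00000041801, mm10 chromosome 1, 135766119 to 135769136, plus strand) encodes a pleckstrin homology domain protein known to inhibit the kinase AKT. Its level was 5.09, 7.05, 5.69 and 7.25 CPM in LLC1 mice 1-2, 1-3, 1-5 and 2-2, and 9.95, 8.48, 7.83 and 10.4 CPM in PBS mice 1-1, 1-3, 2-1 and 2-5. The groups did not overlap, with LLC1 2-2 and PBS 2-1 the nearest pair. The fold change was 0.687 with a 95% interval of 0.554 to 0.852 (edgeR FDR = 0.0369, exact permutation p = 0.0286). Phlda3 was called in all 10 alternative settings with all mice (FDR of 0.00912 to 0.0469), yet in just 3 of the 8 fits that left out 1 mouse. The FDR was 0.0939 without LLC1 1-2, 0.0622 without LLC1 1-3, 0.104 without LLC1 1-5, 0.0724 without PBS 1-3 and 0.0680 without PBS 2-5 (same edgeR test), with the log2 fold change between -0.63 and -0.46 in all 8. Without PBS 1-1 the log2 fold change was -0.50 (edgeR FDR = 0.0451). The summed level of endothelial markers was 767.6 to 896.8 CPM in LLC1 mice and 891.6 to 1174 CPM in PBS mice. Of these markers, Kdr and Emcn were called lower. Unlike the Phlda3 levels, the sums overlapped, as PBS 1-1 was at 891.6 CPM and LLC1 2-2 at 896.8 CPM. Markers of dividing cells (7.14 to 9.30 CPM in sum against 21.3 to 57.3 CPM) and 2 of 5 fibroblast markers were lower too. The part of any cell type in the Phlda3 level was not tested.

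Mdm2 (ENSMUSG00000020184, mm10 chromosome 10, 117688888 to 117710758, minus strand), the ubiquitin ligase that degrades p53, was at 49.6, 51.3, 57.6 and 58.1 CPM in the LLC1 mice and at 62.0, 62.1, 59.6 and 54.8 CPM in the PBS mice. The PBS mice were above every LLC1 mouse except for PBS 2-5, which lay within the LLC1 range. Its log2 fold change was -0.14 with a 95% interval of -0.30 to 0.02 (edgeR FDR = 0.268). Ccng1 (ENSMUSG00000020326, mm10 chromosome 11, 40748552 to 40755311, minus strand), which encodes cyclin G1, a partner of the phosphatase that acts on MDM2, was by far the most abundant of the 10. Its level was 873, 875, 1011 and 798 CPM in the LLC1 mice and 1136, 1087, 1046 and 819 CPM in the PBS mice. Again PBS 2-5 was within the LLC1 range and the other PBS mice were above it. The log2 fold change of Ccng1 was -0.20 with a 95% interval of -0.43 to 0.03 (edgeR FDR = 0.250), and it became a call in 1 fit, that without PBS 2-5 (-0.30, edgeR FDR = 0.0419).

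None of the 3 apoptosis genes among the 10 was called, with unadjusted edgeR p-values of 0.201 for Trp53inp1, 0.774 for Bax and 0.619 for Bbc3, and DESeq2 and limma-voom called none of them either. Trp53inp1 (ENSMUSG00000028211, mm10 chromosome 4, 11156431 to 11174379, plus strand), a stress protein that promotes p53 activity and autophagy, was at 16.5 to 22.2 CPM in LLC1 mice and 15.6 to 22.4 CPM in PBS mice, a log2 fold change of 0.17 with a 95% interval of -0.11 to 0.45 (edgeR FDR = 0.430) that was 0.30 without PBS 2-1. Bax (ENSMUSG00000003873, mm10 chromosome 7, 45461695 to 45466898, minus strand), a pore-forming protein of the outer mitochondrial membrane, was at 17.5 to 21.4 CPM and 14.3 to 22.3 CPM in LLC1 and PBS mice. Its log2 fold change was 0.04 (95% interval of -0.23 to 0.31, edgeR FDR = 0.887) and changed sign to -0.03 when libraries were scaled to total counts, to -0.07 without PBS 1-1 and to -0.01 without LLC1 1-5, while it was 0.11 without PBS 2-5. Another gene model on the same strand covers 12.2% of the Bax exon bases and was not used here. Bbc3 (ENSMUSG00000002083, mm10 chromosome 7, 16309616 to 16318205, plus strand) encodes PUMA, a protein that binds and neutralizes BCL2. It was at 2.77 to 4.23 CPM in LLC1 mice and at 2.30 to 3.95 CPM in PBS mice, a log2 fold change of 0.11 with a 95% interval of -0.35 to 0.56 (edgeR FDR = 0.790). The sign turned without LLC1 2-2 (-0.07) and without PBS 2-1 (-0.02), and the value was 0.25 without PBS 1-1. The intervals leave room for fold changes of up to 1.37 for Trp53inp1, 1.24 for Bax and 1.48 for Bbc3.

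Apoptosis transcripts were also compared with each other within each mouse. The log2 ratio of Bax to Bcl2, which encodes the founding inhibitor of mitochondrial apoptosis, was 0.95 to 1.81 in LLC1 mice and 0.53 to 1.37 in PBS mice. The difference of 0.43 was within the spread between mice (2-sided exact permutation p = 0.171, adjusted 0.240), and it was 0.27 without PBS 1-1. The log2 ratio of Bbc3 to Bax, both pro-apoptotic, differed by 0.02 (exact permutation p = 0.943, adjusted 0.943). That difference was 0.28 without PBS 1-1 and turned its sign without LLC1 2-2 (-0.10), PBS 2-1 (-0.09) or PBS 2-5 (-0.12).

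Levels per length were set with the gene lengths in the deposited table. For some genes these are shorter than the merged exons of GENCODE M21, by 869 against 1576 bases for Bax, 2223 against 3553 for Cdkn1a and 1266 against 1589 for Gadd45b, and parts of the order depend on that choice. In PBS mice Ccng1 was at 291 ± 39.9 RPKM (SD, n = 4), followed by Bax at 22.0 ± 4.05, Cdkn1a at 18.2 ± 5.88, Mdm2 at 11.8 ± 0.665 and Gadd45g at 8.64 ± 2.14 RPKM. Below these came Gadd45a at 5.95 ± 0.970, Phlda3 at 5.88 ± 0.774, Gadd45b at 3.15 ± 0.347, Trp53inp1 at 2.76 ± 0.482 and Bbc3 at 1.52 ± 0.373 RPKM. Neighbors in this order overlapped in their ranges except Ccng1 and Bax, Phlda3 and Gadd45b, and Trp53inp1 and Bbc3. In LLC1 mice Gadd45b, at 6.45 ± 1.35 RPKM, stood above Phlda3, at 4.02 ± 0.670 RPKM, and was not separated from Gadd45a, at 6.79 ± 1.00 RPKM. With the M21 lengths, an alternative chosen after seeing the data, Gadd45b was at 5.14 ± 1.07 RPKM in LLC1 mice and its range overlapped that of Phlda3, whereas in PBS mice it was at 2.51 ± 0.277 RPKM and still below Phlda3 without overlap. Cdkn1a, at 25.4 ± 4.65 RPKM in LLC1 mice, and Bax, at 22.6 ± 1.88 RPKM, overlapped in both groups with the deposited lengths. With the M21 lengths Cdkn1a was at 15.9 ± 2.91 RPKM and Bax at 12.5 ± 1.04 RPKM in LLC1 mice, with no overlap, and in PBS mice Bax, Mdm2 and Cdkn1a lay between 11.4 and 12.1 RPKM with ranges that overlapped. Ccng1 was the highest and Bbc3 the lowest of the 10 with either set of lengths.

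The pattern over the 8 mice was also compared with that of every tested gene, as the mean absolute difference in log2 CPM after each gene was centered on its mean. For Gadd45b, 5 genes lay nearest, Gnmt (0.10), Lrg1 (0.15), Lcn2 (0.16), Gm13498 (0.16) and Gm6293 (0.18), against a median of 0.51 over all genes. Their group means had the order of those of Gadd45b, which follows from how they were chosen, as with Lrg1 at 52.1 CPM in LLC1 and 27.6 CPM in PBS mice and Lcn2 at 6.45 and 3.22 CPM. For Cdkn1a the nearest were Rasgef1b (0.11), Abca4 (0.15) and Gm14123 (0.15), against a median of 0.36. The measure describes these mice and carries no test.

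Of 40 other genes known as p53 targets, 39 were in the table and 35 were tested. Of these, 2 were higher in tumor-bearing mice and 7 were lower, or 25.7% called, beside the 8.73% of all genes tested. The median log2 fold change was -0.02, against -0.01 over all genes, and LLC1 and PBS values were separated for 14 of the 35 genes (40.0%, against 17.2% of all). Calls thus lay in both directions. The number of calls was 9 to 13 in the alternatives with all mice and 7 to 12 without single mice. Cell type markers also differed between the groups, lower for dividing and endothelial cells among others, and their part in these calls was not tested.

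Sesn1, which encodes a sestrin that restrains growth signaling through mTORC1, was at 188 to 206 CPM in LLC1 mice and 128 to 145 CPM in PBS mice (log2 fold change 0.54 ± 0.06 SE, edgeR FDR = 0.000832). Ptp4a3, a phosphatase, was at 431 to 447 CPM and 260 to 357 CPM (0.49 ± 0.09, edgeR FDR = 0.00686). These were the 2 targets that rose in this test, and 2 to 5 were higher in the alternatives with all mice (5 with the likelihood ratio test) and 5 without PBS 2-5. The polo-like kinases Plk2 and Plk3 fell. Plk2 was at 28.6 ± 2.51 CPM against 42.0 ± 1.496 CPM (SD, n = 4; log2 fold change -0.56, edgeR FDR = 0.00183), and Plk3 at 2.73 ± 0.752 against 5.48 ± 0.901 CPM (-0.99, edgeR FDR = 0.0118). Trp53i11, a p53-inducible gene, was at 27.4 ± 6.23 against 48.9 ± 7.02 CPM (-0.83, edgeR FDR = 0.00683). Eda2r, a receptor of the tumor necrosis factor receptor family, was at 3.34 ± 0.488 against 6.40 ± 1.41 CPM (-0.93, edgeR FDR = 0.00982). For neither gene did the groups overlap. Apaf1, the scaffold on which caspase-9 is activated, was at 8.88 ± 0.845 against 11.8 ± 0.894 CPM (-0.42, edgeR FDR = 0.0286). Thbs1, the secreted matrix protein thrombospondin 1, was at 8.60 to 12.5 CPM in LLC1 mice and 16.5 to 56.2 CPM in PBS mice (-1.74, edgeR FDR = 0.0127), a wide spread among controls. The study selected Thbs1 and Apaf1 from these mice, so their directions are no independent evidence. The ninth gene called was Zmat3, an RNA-binding zinc finger protein (-0.46, edgeR FDR = 0.0287), named here so that the list of 9 is complete.

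**Figure D4:**
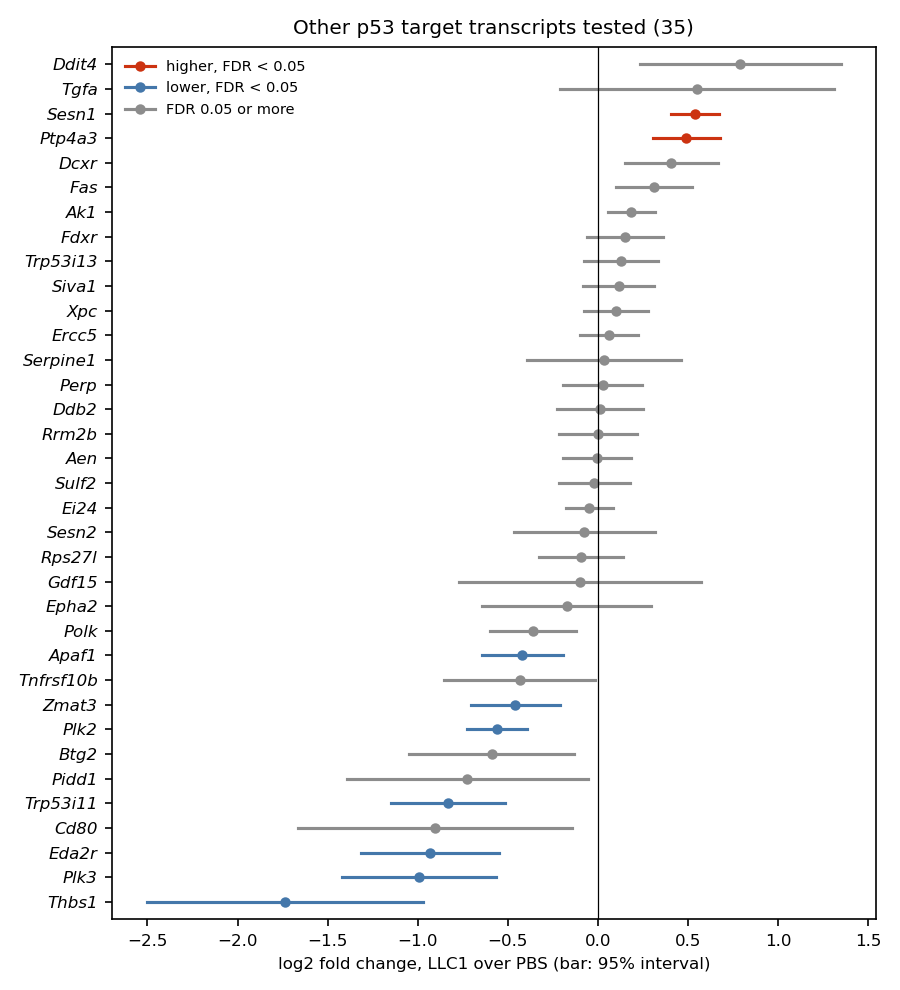
Log2 fold change of LLC1 over PBS for the 35 tested p53 targets outside the 10 genes, in order of size, with 95% confidence intervals from edgeR. Red marks the 2 genes called higher (Sesn1 and Ptp4a3), blue the 7 called lower and grey those with an FDR of 0.05 or more. Ddit4, at the top, has a wider interval than Sesn1 and was not called.

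Of 24 regulators of p53, 20 were tested, and 1 was higher and 1 lower (10.0% called, beside 8.73% of all genes). Ppp1r13l, which encodes the p53 inhibitor iASPP, was at 42.5 to 50.01 CPM in LLC1 mice and 27.7 to 32.3 CPM in PBS mice (log2 fold change 0.64 ± 0.08 SE, edgeR FDR = 0.00103). Chek2, the checkpoint kinase that phosphorylates p53, was at 2.52 to 3.18 CPM and 4.47 to 5.20 CPM (-0.73 ± 0.14, edgeR FDR = 0.00986). The other 18 regulators were not called. Trp53, the p53 gene itself, was at 15.0 ± 1.21 CPM in LLC1 mice and 19.6 ± 3.45 CPM in PBS mice (SD, n = 4; log2 fold change -0.39, edgeR FDR = 0.0681) and was not called. Mdm4, the partner of MDM2, was at 71.2 ± 1.37 against 73.1 ± 4.67 CPM (-0.04, edgeR FDR = 0.751). Without PBS 1-1 the number of regulators called was 4.

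Among 22 tested partners of GADD45 proteins and kinases of the stress-activated pathway, 0 were higher and 2 were lower (9.09% called, beside 8.73% of all genes). Map3k4, the kinase that GADD45 proteins bind and activate, was at 70.1 ± 1.53 against 69.4 ± 3.24 CPM (SD, n = 4; log2 fold change 0.01, edgeR FDR = 0.907). Cdk1, the mitotic kinase, was at 0.338 ± 0.0513 against 2.19 ± 1.08 CPM (-2.69, edgeR FDR = 0.00313). It reached the level of the filter in PBS mice only, so its being lower in LLC1 mice was close to a condition of its being tested, and the list had 1 call under a filter of 10 counts per mouse. With the replicate-code covariate 2 genes of the list were higher and 2 lower. Tet1, which oxidizes 5-methylcytosine in DNA, was at 7.12 ± 0.871 against 10.4 ± 1.74 CPM (-0.54, edgeR FDR = 0.0320). The 5 tested of 8 markers of dividing cells were all lower, among them Cdk1 and Birc5, which passed the filter through PBS mice alone, with a summed level of 7.14 to 9.30 CPM in LLC1 mice and 21.3 to 57.3 CPM in PBS mice.

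Of the 4 tested CDK inhibitors other than Cdkn1a, 0 were called, and edgeR gave 0 with an unadjusted p under 0.05, beside 8.73% and 25.5% of all genes tested. DESeq2, limma-voom and the other alternatives also called 0. Cdkn1b, which encodes p27, was at 43.0 to 46.3 CPM in LLC1 mice and 38.4 to 42.3 CPM in PBS mice, a gap without overlap but of small size (log2 fold change 0.12 ± 0.06 SE, edgeR FDR = 0.238).

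In the BCL2 family 1 of 15 tested genes was higher and 2 were lower (20.0% called, beside 8.73% of all genes). Bnip3, a mitochondrial protein known for mitophagy in hypoxia, was at 155 to 188 CPM in LLC1 mice and 120 to 149 CPM in PBS mice (log2 fold change 0.35, edgeR FDR = 0.0278), and it too was picked by the study from these mice. Bcl2a1b, an anti-apoptotic gene, was at 0.315 ± 0.113 against 0.983 ± 0.280 CPM (SD, n = 4; -1.65, edgeR FDR = 0.0174). It had 3 to 23 counts a library and passed the filter through PBS mice alone, and near-identical copies of this gene exist, so its value is uncertain and its call adds little to the count of 3. Bok, a relative of Bax, was at 3.24 ± 0.439 against 4.91 ± 0.844 CPM (-0.58, edgeR FDR = 0.0491). Bcl2 was at 7.15 ± 1.33 against 9.21 ± 0.731 CPM (-0.36, edgeR FDR = 0.117) and Bcl2l1, which encodes BCL-XL, at 57.6 ± 2.67 against 41.6 ± 14.3 CPM (0.46, edgeR FDR = 0.121), and neither was called. Without LLC1 1-3 or PBS 2-1 the family had 0 calls in edgeR, and without LLC1 1-5 or PBS 1-3 it had 1, so this count rests on single mice.

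Among 29 tested genes of nucleotide excision repair and the DNA damage checkpoint, 0 were higher and 3 were lower (10.3% called, beside 8.73% of all genes). Clspn, the checkpoint adaptor claspin, was at 0.206 ± 0.149 against 1.122 ± 0.266 CPM (SD, n = 4; log2 fold change -2.44, edgeR FDR = 0.00575). Brca1, a repair gene of dividing cells, was at 0.240 ± 0.0726 against 1.17 ± 0.543 CPM (-2.30, edgeR FDR = 0.00833). Both had at most 26 counts in any mouse and passed the filter through PBS mice alone, so 2 of the 3 calls entered with their direction nearly fixed. Under a filter of 10 counts per mouse the list had 1 call. The split by direction varied too, with 1 gene higher and 1 lower in DESeq2, 1 higher and 4 lower in the likelihood ratio test and with the covariate, and 2 higher and 4 lower without PBS 2-5. Cdc25a, the phosphatase that activates cyclin-dependent kinases, was at 4.29 ± 0.440 against 5.95 ± 0.669 CPM (-0.47, edgeR FDR = 0.0468). Clspn and Brca1 are known to be used mainly in dividing cells, and the markers of dividing cells, at most 9.30 CPM in sum in LLC1 mice and at least 21.3 CPM in PBS mice, moved with them, and the part of these cells in the difference was not tested.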

How the data were processed

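Paired-end reads of unstranded TruSeq v2 libraries had been counted per gene by the authors, whose processing notes name CASAVA, STAR and featureCounts and the mm10 build. The deposited values are raw counts for 43346 genes and each mouse. The annotation and the strand setting are not given in the sources used here. The reads were not analysed here.

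The 2 groups were compared in edgeR 4.0.16 (R 4.3.3). After filterByExpr, which left 16111 genes, and scaling by TMM, a quasi-likelihood F-test without covariates used all 8 mice. P-values were adjusted over all tested genes with the Benjamini-Hochberg method, and calls had an FDR under 0.05. The standard error is the absolute log2 fold change divided by the square root of F. CPM are TMM-scaled, and RPKM divide CPM by the gene length in the deposited table. Shares, ratios and single levels were tested with exact permutation over the 70 arrangements of the mice, 2-sided. Single mice are the replicates. The edgeR p-value sets the group difference against a spread between mice that is estimated with information from all tested genes. The permutation p ranks the difference among the 70 arrangements.

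The alternatives were DESeq2 1.42.0, limma-voom (limma 3.58.1), the likelihood ratio test, robust empirical Bayes, 3 other scalings, 2 other filters (at least 1 count in any mouse, at least 10 in every mouse), a covariate for the number that opens the replicate code, and each mouse left out. The genes and lists were chosen with earlier results of these data known. Named were the 10 genes, up to 8 called genes per list in the order of FDR, and Trp53, Mdm4, Cdkn1b, Bcl2, Bcl2l1 and Map3k4, plus the 5 genes nearest to Gadd45b and the 3 nearest to Cdkn1a. Shared exons were read from GENCODE M21, and similar transcripts (at least 97% identity over 150 bases) were searched with BLAST 2.17.0 for the 10 genes. Promoters came from RefSeq (GRCm38.p6). The steps were tested on simulated data, in Python 3.11.15 and R.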

Additional observations from a re-analysis of the deposited data

Results flagged for a closer look

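In the 10 transcripts, 20 groups of 4 mice were checked for a value far from the other 3, where chance would give about 1 in 20. Cdkn1a in LLC1 1-5, at 71.9 CPM, was far above the other LLC1 mice (50.3 to 52.0 CPM), the gap being 0.922 of the range of the group, above Dixon's 95% critical value. Bbc3 in LLC1 2-2, at 4.23 CPM, was above the other LLC1 mice (2.77 to 3.01 CPM), with a gap of 0.833 of the range.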

How the results depend on the processing

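No paired analysis was possible because the groups share 1 replicate code (1-3), carried by different animals. Gadd45b and Phlda3 were the 2 members called in all 10 alternatives with all mice, and leaving out single mice gave 1 to 2 member calls. Genes called among all tested numbered 1018 (total counts) to 1855 with all mice and 542 (without PBS 1-3) to 1949 (without PBS 1-1) without single mice, against 1406. Calls among repair and checkpoint genes were 5 with the likelihood ratio test, 5 with the covariate, 1 with at least 10 counts in every mouse and 2 to 6 without single mice. Calls among GADD45 partners were 4 with all genes of at least 1 count, 4 with the covariate, 1 with at least 10 counts and 1 to 3 without single mice. Without single mice, p53 regulators had 2 to 4 calls, other p53 targets 7 to 12 and the BCL2 family 0 to 4. The log2 fold change turned its sign for Bax with total counts (-0.0257) and without LLC1 1-5 (-0.005) or PBS 1-1 (-0.0707; all mice left out in turn, up to 0.1126), for Gadd45g without LLC1 2-2 (0.0304) or PBS 2-5 (0.0824; from -0.2248) and for Bbc3 without LLC1 2-2 (-0.0691) or PBS 2-1 (-0.0162; up to 0.2471). So did the difference in the Gadd45a share without PBS 2-1 (1.499 percentage points; from -4.588) and in the log2 ratio of Bbc3 to Bax without LLC1 2-2, PBS 2-1 or PBS 2-5 (down to -0.1202; up to 0.2837). The cause was not tested. Without PBS 2-1 the shares of Gadd45b (12.5 percentage points) and Gadd45g (-14.0) had an adjusted exact permutation p of 0.0429. Ratios per CPM differ between groups as those per length do by construction and were not run. With GENCODE M21 exon lengths, chosen after seeing the data, the 3 shares kept their directions and adjusted p-values of at least 0.0857. Counts of 39 to 84 for Bbc3 limit its precision.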
